A study of Arabidopsis thaliana with 4 samples.

Results

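The 8 chlorophyll breakdown genes NYC1 (AT4G13250), NOL (AT5G04900), HCAR (AT1G04620), SGR1 (AT4G22920), SGR2 (AT4G11910), PPH (AT5G13800), PAO (AT3G44880) and RCCR (AT4G37000) were described in RNA-seq libraries of leaf protoplasts and of whole leaf from wild-type Arabidopsis thaliana, ecotype Col-0. They were taken by locus from a table of 24904 gene loci, and all 8 had a row and passed the filter on low counts that left 20200 tested genes. Protoplasts and whole leaf had 2 libraries each. Plants of both groups were used at an age of 6 weeks, after growth at a photon flux of 60 µmol with 8 h of light and 16 h of darkness a day. For the protoplasts, fully developed leaves were peeled of their lower epidermis with tape, cut, and shaken for 2 h in 1% cellulase and 0.3% macerozyme with 0.6 M mannitol, then filtered and washed. Whole leaves did not go through this digestion, and no label says whether they were peeled. The labels speak of biological replicates without naming plants or days, so each p-value reflects the spread among these 4 libraries alone, part of which may be technical.

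Chlorophyll is broken down in the chloroplast, mainly during leaf senescence, by a linear route that ends in colourless products stored in the vacuole. Chlorophyll b is first reduced to chlorophyll a by NYC1 and NOL together with HCAR. The STAY-GREEN protein SGR1 then removes the central magnesium, PPH cuts off the phytol tail, PAO opens the ring, and RCCR reduces the red product that PAO makes. Plants that lack PAO or RCCR collect phototoxic intermediates and form lesions, which gave these genes their other names ACD1 and ACD2. SGR2 is the close relative of SGR1 and is described in the reference annotation as acting against it.

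SGR1 and SGR2 are close relatives whose fold changes had opposite signs with TMM scaling (described below), so their sequences are shown first. The coding sequences of SGR1 and SGR2, read from RefSeq's annotation of TAIR10.1, are 807 and 816 bases long and were identical at 620 of 789 aligned bases (78.6%). Their longest stretch in common was 28 bases. A window of 60 coding bases around that stretch differed at 9 bases, printed in capitals below, and covers bases 291 to 350 of SGR1 and 279 to 338 of SGR2, counted from the start codon.
SGR1: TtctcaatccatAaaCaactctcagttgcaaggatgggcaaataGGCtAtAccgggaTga
SGR2: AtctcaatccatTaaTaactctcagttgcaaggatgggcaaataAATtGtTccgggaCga
NYC1 and NOL, the other pair of relatives, were 62.2% identical over 1025 aligned coding bases, with at most 14 bases in common in a row.

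The 250 bases before the annotated start of each STAY-GREEN gene are shown for the same reason. A link between these bases and the fold changes was not tested. Capitals mark ACGTG or its reverse complement, the core of the sites bound by abscisic acid and light-signalling factors, which includes the longer G-box CACGTG. The SGR1 window is chr4:12018644-12018893 on the minus strand and the SGR2 window is chr4:7155900-7156149 on the plus strand, both in TAIR10.1.
SGR1: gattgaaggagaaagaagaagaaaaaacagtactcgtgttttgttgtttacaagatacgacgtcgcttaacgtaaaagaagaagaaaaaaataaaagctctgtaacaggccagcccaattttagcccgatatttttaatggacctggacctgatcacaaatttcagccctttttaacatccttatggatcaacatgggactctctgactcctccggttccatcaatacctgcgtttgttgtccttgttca
SGR2: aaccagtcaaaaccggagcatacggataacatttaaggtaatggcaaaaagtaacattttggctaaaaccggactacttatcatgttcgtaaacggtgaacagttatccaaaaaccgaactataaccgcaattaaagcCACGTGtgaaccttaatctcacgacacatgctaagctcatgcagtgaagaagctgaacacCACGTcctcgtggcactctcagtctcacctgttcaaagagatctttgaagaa
In windows of 250 bases before to 50 bases after the start, searched on both strands, the G-box CACGTG was present in 3 of the 8 genes and in 7.68% of 27443 nuclear protein-coding promoters. The genes were SGR2, where it began 112 bases before the start, NOL, where it began 21 bases before it, and NYC1, where it began at base 35 of the transcript. The same 3 of 8 genes held ACGTG, against 26.7% of all promoters, and 3 of 8 (SGR2, NYC1 and PPH) held the W-box core TTGAC, against 50.5%. The SGR1 window held none of these motifs, and bases farther from the start were not searched.

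Protoplast libraries held 39958035 to 48503141 counts and leaf libraries 42121436 to 43685947. The tissue labels were checked with marker genes. Protoplasts kept the mesophyll markers, whose summed level was 49970 to 50440 CPM (counts relative to the library size scaled with TMM factors) in protoplasts and 34190 to 34580 CPM in leaf. Of the 6 mesophyll markers 5 rose in protoplasts with TMM, LHCB2.1 being the exception, while with library size only 1 rose and 4 fell. Of 8 epidermis markers 7 were tested and all 7 fell, with a summed level of 10.1 to 10.5 CPM in protoplasts and 1155 to 1156 CPM in leaf, and PDF1, the untested one, had 0 counts in both protoplast libraries. All 6 guard cell markers fell, to 2.44 to 2.54 CPM in protoplasts against 44.3 to 45.3 CPM in leaf, with ALMT12 at 0 protoplast counts. All 9 vascular markers fell, to 31.6 to 32.3 CPM in protoplasts against 891.4 to 936.6 CPM in leaf. These falls held under all 6 scalings of the libraries described below. In such bulk samples, fewer cells of a type and less RNA per cell cannot be told apart.

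Protoplasts differed from leaf both in having been isolated and in their lower epidermis, guard cell and vascular markers. The parts of isolation and of cell makeup in the fold changes below cannot be told apart. With TMM scaling the transcripts of the enzymes from chlorophyll b reduction to phytol removal were higher in protoplasts. The transcript of PAO, for ring opening, was not called, and those of RCCR and SGR2 were lower. Only transcript counts were analysed, not enzyme activity or chlorophyll. Of the 8 genes, 5 rose (PPH, HCAR, SGR1, NOL and NYC1) and 2 fell (SGR2 and RCCR), while PAO did not pass the threshold of an adjusted p of 0.05 in edgeR's quasi-likelihood test. Over all 20200 tested genes 39.8% rose and 40.7% fell, so a call by itself says little here. Protoplast and leaf libraries were fully separated for 7 of the 8 genes, the exception being PAO, and for 90.3% of all tested genes. The summed counts of the 8 genes came to 406.0 and 390.7 CPM in protoplasts and to 254.3 and 259.4 CPM in leaf.

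**Figure D1:**
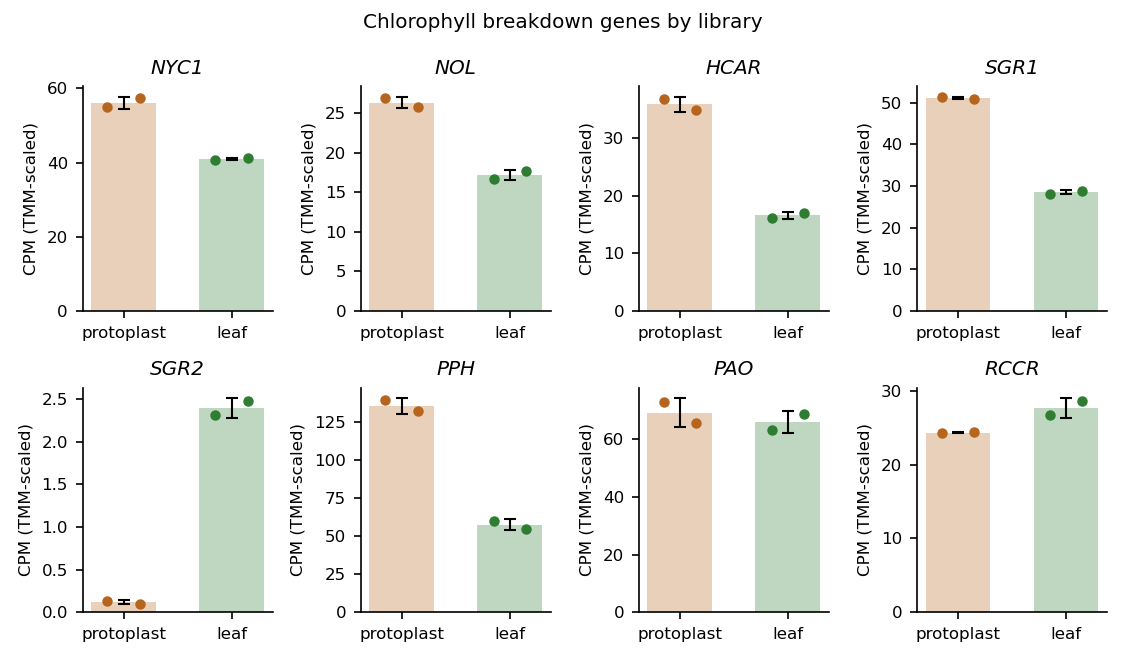
TMM-scaled CPM of the 8 chlorophyll breakdown genes in protoplasts (left bar) and leaf (right bar), with dots for the 2 libraries, bars for their mean and whiskers for the SD; each panel has its own scale. Only PAO has overlapping libraries, and SGR2 has 0.135 and 0.100 CPM in protoplasts against 2.32 and 2.48 CPM in leaf.

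NYC1, the chlorophyll b reductase that opens the route, had 54.98 and 57.26 CPM in the protoplast libraries and 40.68 and 41.21 CPM in the leaf libraries. Both protoplast libraries lay above both leaf libraries, and the log2 fold change was 0.45 ± 0.05 (SE, adjusted p = 7.03e-06, edgeR). Its partner NOL had 26.8 and 25.8 CPM in protoplasts and 16.7 and 17.6 CPM in leaf. NOL was lower than NYC1 in every library and rose as well, with a log2 fold change of 0.62 ± 0.07 (adjusted p = 3.17e-06, edgeR). HCAR, which completes the conversion to chlorophyll a, had 36.8 and 34.9 CPM in protoplasts and 16.2 and 17.1 CPM in leaf. Its groups lay far apart, with a 2.16-fold rise and a log2 fold change of 1.11 ± 0.07 (adjusted p = 6.9e-09, edgeR).

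SGR1, the magnesium-removing enzyme, had 51.4 and 50.9 CPM in protoplasts and 28.2 and 28.8 CPM in leaf. The replicates of each group nearly coincided, and SGR1 rose 1.79-fold (log2 fold change 0.84 ± 0.06, adjusted p = 2.12e-08, edgeR). SGR2 had 5 and 3 counts in the protoplast libraries and 129 and 143 counts in the leaf libraries, or 0.135 and 0.100 CPM against 2.32 and 2.48 CPM. It was the weakest of the 8 genes in both groups and nearly absent from protoplasts, with a log2 fold change of -4.30 ± 0.33 (adjusted p = 8.04e-08, edgeR). From the summed counts, 8 in protoplasts and 272 in leaf, SGR2 was 20.1-fold lower in protoplasts, with an exact 95% counting interval of 10.0 to 47.0. The fall stood beside that of the epidermis, guard cell and vascular markers, whose summed levels in protoplasts were 0.892%, 5.55% and 3.50% of those in leaf, and the part of these cells in it was not tested.

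PPH, the pheophytinase, had 138.9 and 131.7 CPM in protoplasts and 60.2 and 54.9 CPM in leaf. It showed the largest rise of the 8 genes, 2.35-fold, with a log2 fold change of 1.23 ± 0.06 (adjusted p = 7.77e-10, edgeR). PAO, the oxygenase that follows, had 72.8 and 65.6 CPM in protoplasts and 63.4 and 68.7 CPM in leaf. Its libraries overlapped, and the log2 fold change of 0.07 ± 0.06 did not pass the threshold (adjusted p = 0.332, edgeR). RCCR had 24.3 and 24.4 CPM in protoplasts and 26.7 and 28.6 CPM in leaf. RCCR fell slightly, by 0.19 ± 0.07 on the log2 scale (adjusted p = 0.0195, edgeR), a call that ended with RLE factors (adjusted p = 0.0519), with DESeq2 (adjusted p = 0.186), and without leaf replicate 2 (adjusted p = 0.16). In the reference annotation RCCR overlaps CEN2 (AT4G37010), whose log2 fold change was 2.69, and PAO overlaps AT3G44870, not analysed here, so the counts of RCCR and PAO are uncertain to that extent.

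The authors' deposited table gave log2 fold changes from -4.31 for SGR2 to 1.25 for PPH. In the authors' deposited table the same 5 genes were higher with adjusted p-values of at most 6.02e-08, and RCCR (-0.16, adjusted p = 0.173) and PAO (0.09, adjusted p = 0.362) were not past 0.05.

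Directions for several of these genes depended on how the libraries were scaled. The median log2 fold change of all tested genes was -0.04 with TMM and -0.01 with RLE factors, -0.37 with upper-quartile factors, -0.41 with scaling to 10 reference genes, -0.59 with scaling to the 6 mesophyll markers and -0.85 with library size only. The share of all calls that were higher was, in the same order, 49.4%, 51.2%, 35.9%, 34.3%, 29.3% and 23.5%. Of the 8 genes 5 rose and 1 fell with RLE factors, against 41.1% and 39.2% of all tested genes, and 5 rose and 3 fell with upper-quartile factors, against 30.6% and 54.7%. With reference genes 4 rose and 3 fell (29.2% and 55.7% of all), with mesophyll markers 3 and 3 (25.7% and 62.3%), and with library size only 2 and 5 (21.4% and 69.6%). The 10 reference genes were not level between the groups themselves. With TMM 6 of them rose and 1 fell, against 39.8% and 40.7% of all tested genes. Among them AT1G58050 had 0 counts in both leaf libraries. PPH and HCAR rose and SGR2 fell under all 6 scalings. SGR1 rose under 5 of them and had a log2 fold change of 0.04 with library size only (adjusted p = 0.557, edgeR). NOL had log2 fold changes from 0.66 with RLE factors to -0.19 with library size only, and NYC1 from 0.49 to -0.35. PAO fell with reference gene, upper-quartile, mesophyll marker and library size scaling (log2 fold changes of -0.30, -0.26, -0.48 and -0.74), and RCCR fell by 0.99 on the log2 scale with library size only. With DESeq2 5 of the 8 genes rose and 1 fell (37.8% and 33.6% of all genes), and likewise without leaf replicate 2 (38.6% and 37.8%).

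A scaling shifts all genes together, so the order of the 8 fold changes and their distances from the median of all genes are nearly fixed by construction. The distances of the log2 fold changes from that median with TMM were 1.28 for PPH, 1.15 for HCAR, 0.89 for SGR1, 0.66 for NOL, 0.50 for NYC1, 0.11 for PAO, -0.14 for RCCR and -4.25 for SGR2. Thus 6 of the 8 genes lay above the median of all genes, and RCCR and SGR2 below it. Within the whole comparison 19.5% of tested genes had a larger log2 fold change than PPH, 20.8% than HCAR and 24.5% than SGR1. For NOL the share was 29.0%, for NYC1 33.2%, for PAO 45.8% and for RCCR 55.9%. SGR2 lay near the lower end, with 95.5% of tested genes above it.

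**Figure D2:**
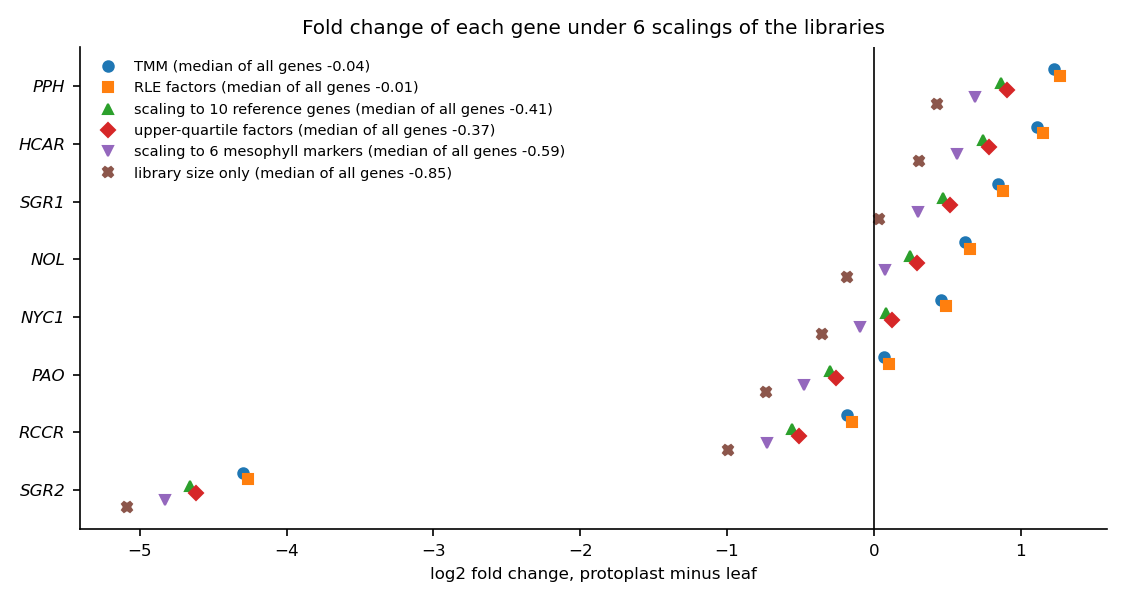
Log2 fold change of each gene, protoplast minus leaf, on the horizontal axis under 6 scalings of the libraries (symbols), with the genes ordered from PPH to SGR2. Each scaling shifts all genes together and leaves their order, so that PPH stays right of 0 in all 6 (0.43 to 1.27) and PAO lies on both sides of it (-0.74 to 0.11).

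Ratios between 2 genes inside a library do not depend on the scaling. They are given per kilobase of annotated exon, with exact 95% intervals that cover counting error only. For each of the 6 ratios compared the protoplast libraries lay on one side of the leaf libraries. An exact two-sided permutation test gave the smallest p that 2 libraries against 2 allow, 0.333 (0.333 after adjustment over the 6). Among single tested genes 90.3% were separated in CPM, and the share over all gene pairs was not computed. The separation of a ratio therefore says little by itself.

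Of the 6 ratios, that of the STAY-GREEN pair differed most. SGR1 was 282.1 and 376.8 times as abundant as SGR2 in the protoplast libraries (intervals 121 to 870 and 129 to 1830) and 9.03 and 8.63 times in the leaf libraries (7.54 to 10.9 and 7.27 to 10.3). The log2 difference between the groups was 5.21, and the 4 pairs of a protoplast and a leaf library gave 4.97 to 5.45. PPH and PAO, neighbours in the route, changed places. The ratio of PPH to PAO was 1.68 and 1.77 in protoplasts and 0.837 and 0.703 in leaf, a 2.25-fold difference whose intervals lay wholly above 1 in protoplasts and below 1 in leaf.

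Within chlorophyll b reduction, HCAR gained on NYC1. The ratio of HCAR to NYC1 was 0.623 and 0.568 in protoplasts and 0.370 and 0.385 in leaf, a 1.58-fold difference. NYC1 and NOL kept closer to each other, at 1.39 and 1.503 in protoplasts and 1.65 and 1.58 in leaf, and only the intervals of protoplast replicate 1 (1.29 to 1.5) and leaf replicate 1 (1.53 to 1.79) were apart, those of protoplast replicate 2 (1.38 to 1.64) and leaf replicate 2 (1.47 to 1.71) overlapping the others. PAO to RCCR was 2.24 and 2.01 in protoplasts and 1.77 and 1.80 in leaf, a 1.19-fold difference. The interval of protoplast replicate 2 (1.85 to 2.20) overlapped both leaf intervals (1.67 to 1.88 and 1.70 to 1.91).

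CAO, the oxygenase that makes chlorophyll b and so works against NYC1 in the chlorophyll cycle, had 209.7 and 200.9 CPM in protoplasts and 190.2 and 196.0 CPM in leaf. It was not called with TMM (log2 fold change 0.09 ± 0.05, adjusted p = 0.113, edgeR). NYC1 stayed well below CAO in every library, at ratios of 0.294 and 0.320 in protoplasts and 0.240 and 0.236 in leaf, a 1.29-fold difference.

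**Figure D3:**
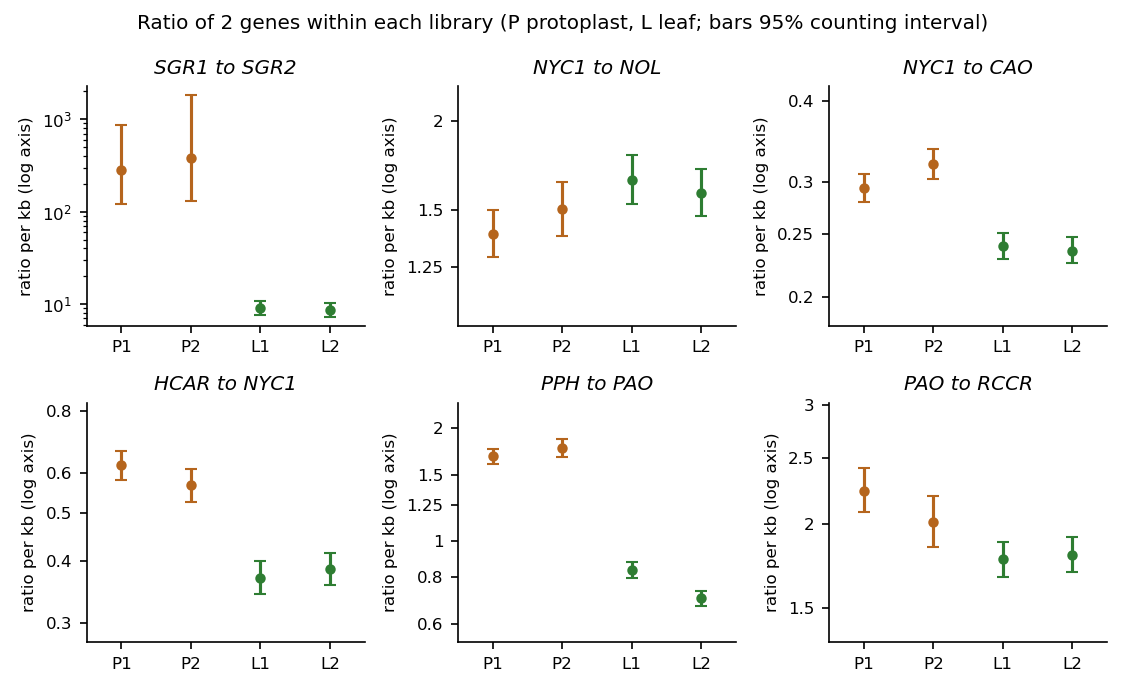
Ratio per kilobase of 2 genes within each library, on log axes that differ between panels; P1 and P2 are protoplast libraries, L1 and L2 leaf libraries, and bars are exact 95% counting intervals. The ratio of PPH to PAO is 1.68 and 1.77 in protoplasts and 0.837 and 0.703 in leaf.

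Levels of the 8 genes can be ordered by CPM per kilobase of exon. In protoplasts PPH stood first at 59.1 ± 2.2 (SD, n = 2), followed by PAO at 34.3 ± 2.5, SGR1 at 28.98 ± 0.17, NYC1 at 27.2 ± 0.8 and NOL at 18.8 ± 0.5. HCAR (16.14 ± 0.60) and RCCR (16.13 ± 0.04) came next and could not be ordered, since their libraries overlapped, and SGR2 was last at 0.0899 ± 0.0188. In leaf PAO stood first at 32.7 ± 1.9 (SD, n = 2), followed by PPH at 25.1 ± 1.6, NYC1 at 19.8 ± 0.2, RCCR at 18.3 ± 0.9, SGR1 at 16.2 ± 0.3, NOL at 12.3 ± 0.5, HCAR at 7.48 ± 0.28 and SGR2 at 1.83 ± 0.09. The libraries of neighbours in the leaf order did not overlap.

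The makeup of the summed counts of the 8 genes shifted accordingly. PPH took 34.2% and 33.7% of the summed counts of the 8 genes in protoplasts and 23.7% and 21.2% in leaf, with Wilson 95% intervals of 33.4% to 35.0%, 32.9% to 34.6%, 23.0% to 24.4% and 20.5% to 21.8%. PAO took 17.9% and 16.8% in protoplasts and 24.9% and 26.5% in leaf. The shares of RCCR were 5.98% and 6.24% in protoplasts and 10.5% and 11.0% in leaf. NOL kept its place, with 6.61% and 6.60% in protoplasts and 6.55% and 6.80% in leaf. Set against the mesophyll markers, the counts of the 8 genes together came to 0.813% and 0.775% of the marker counts in protoplasts and 0.744% and 0.750% in leaf.

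**Figure D4:**
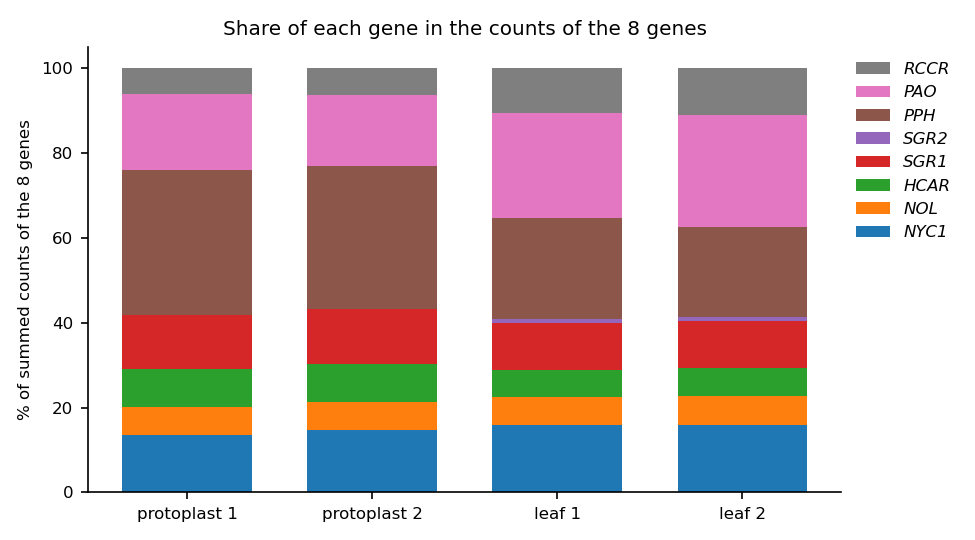
Share of each gene in the summed counts of the 8 genes, in percent, for the 2 protoplast libraries (left) and the 2 leaf libraries (right). PPH takes 34.2% and 33.7% in protoplasts against 23.7% and 21.2% in leaf, and PAO 17.9% and 16.8% against 24.9% and 26.5%.

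The genes most like PPH and SGR2 in their centred log2 CPM over the 4 libraries were sought among 5439 named genes with at least 10 CPM in a group. For PPH, the member with the largest fold change, these were RBL4, RMA3 and KMS2, at Euclidean distances of 0.0393, 0.0470 and 0.0509 and with log2 fold changes of 1.22, 1.19 and 1.20. For SGR2, the member with the smallest, they were OBP2, XTH9 and FMO (AT1G12200), at distances of 0.0605, 0.0920 and 0.115 and with log2 fold changes of -4.38, -4.29 and -4.21. With 4 libraries in 2 groups, this likeness is mainly a likeness of fold change.

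Of 15 further genes of chlorophyll breakdown and phytol salvage, all tested, 10 rose and 3 fell with TMM, where 39.8% of all tested genes rose and 40.7% fell. Their median log2 fold change was 0.27, against -0.04 for all tested genes and 0.54 for the 8 genes. With library size only 12 of the 15 fell (69.6% of all genes), and with scaling to the mesophyll markers 2 rose and 10 fell (25.7% and 62.3% of all genes). The chlorophyllase CLH1 had 49.9 and 49.0 CPM in protoplasts and 43.7 and 44.9 CPM in leaf, and the chlorophyllase CLH2 had 8.53 and 8.69 CPM in protoplasts and 12.9 and 14.4 CPM in leaf. With TMM the log2 fold change was 0.16 for CLH1 (adjusted p = 0.0175, edgeR) and -0.67 for CLH2 (adjusted p = 2.42e-05).

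The strongest falls in that list were those of CYP89A9 and ABCC3. CYP89A9, a cytochrome P450 that forms dioxobilin-type catabolites, had 17.7 and 16.3 CPM in protoplasts and 79.3 and 85.5 CPM in leaf (log2 fold change -2.27 ± 0.07, adjusted p = 5.64e-12, edgeR). ABCC3, a vacuolar transporter able to carry chlorophyll catabolites, had 11.6 and 10.5 CPM in protoplasts and 73.95 and 73.78 CPM in leaf (log2 fold change -2.74 ± 0.07, adjusted p = 7.72e-13, edgeR). Its relative ABCC2 had 117.8 and 119.8 CPM in protoplasts and 95.2 and 101.5 CPM in leaf, and MES16, a methylesterase of the fluorescent catabolites, had 42.6 and 41.5 CPM in protoplasts and 33.99 and 35.72 CPM in leaf. ABCC2 and MES16 were both higher with TMM, with a log2 fold change of 0.27 each (adjusted p = 0.000388 and 0.000899, edgeR). ABCC2, MES16, CLH1 and CLH2 were picked for their roles after their values were seen. The largest rises were in PES1, a phytyl ester synthase (6.89 and 5.52 CPM in protoplasts, 3.14 and 2.69 CPM in leaf), and in AT5G38520, annotated as an alpha/beta-hydrolase (127.0 and 124.6 CPM in protoplasts, 71.6 and 69.3 CPM in leaf). Both lost their call with library size only (adjusted p = 0.0721 and 0.588).

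Of 19 transcription factors listed as regulators of chlorophyll breakdown, 9 rose and 7 fell, a split near that of all tested genes (39.8% and 40.7%), with a median log2 fold change of -0.01 and a range of -1.52 to 9.73. Of the 7 NAC factors in the list 5 rose, NAP fell and NAC016 was not called, and NAC055 and NAC019 rose most. NAC055 had 479.8 and 481.6 CPM in protoplasts and 0.413 and 0.711 CPM in leaf (log2 fold change 9.73 ± 0.11, adjusted p = 7.59e-16, edgeR), and NAC019 had 676.0 and 665.1 CPM in protoplasts and 5.85 and 5.96 CPM in leaf (6.83 ± 0.06, adjusted p = 3.04e-16). ORE1, NAC046 and RD26 rose as well, with log2 fold changes of 3.77 ± 0.09, 5.72 ± 0.14 and 4.195 ± 0.055 (adjusted p = 6.07e-13, 5.62e-13 and 2.16e-15, edgeR). NAP, which like ORE1 and NAC046 promotes senescence, fell by 0.49 ± 0.06 on the log2 scale (adjusted p = 1.18e-05), and NAC016 had a log2 fold change of -0.50 ± 0.36 (adjusted p = 0.218). These 5 were named after their values were seen, to complete the NAC factors of the list. The abscisic acid response factors ABF3 and ABF4 fell, ABF3 to 64.4 and 67.7 CPM in protoplasts against 189.6 and 189.0 CPM in leaf, and ABF4 to 25.98 and 23.56 CPM against 49.4 and 50.9 CPM. In the same list ABF2 fell as well, by 0.89 ± 0.06 on the log2 scale (adjusted p = 2.18e-08, edgeR). ABI5 and EEL rose, with log2 fold changes of 3.58 ± 0.30 and 1.23 ± 0.18 (adjusted p = 2.34e-07 and 4.81e-05, edgeR). ABI5 had 83 and 54 counts in protoplasts and 9 and 10 in leaf. ABF2, ABI5 and EEL were named after their values were seen. In the same libraries the largest rise among the 8 breakdown genes was 2.35-fold, and a link between the listed factors and the 8 genes was not tested.

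Genes of chlorophyll synthesis were mostly higher in protoplasts with TMM. Of 23 synthesis genes 21 rose and 1 fell with TMM, against 39.8% and 40.7% of all tested genes, and their median log2 fold change was 0.75. With library size only 4 rose and 9 fell, against 21.4% and 69.6% of all tested genes. With scaling to the mesophyll markers 14 rose and 4 fell (25.7% and 62.3% of all). With reference genes 18 rose and 2 fell (29.2% and 55.7%), and with upper-quartile factors 19 and 2 (30.6% and 54.7%). PORC, a light-dependent protochlorophyllide reductase, had 158.6 and 152.0 CPM in protoplasts and 72.0 and 75.9 CPM in leaf (log2 fold change 1.07 ± 0.05, adjusted p = 1.04e-09, edgeR). Its relative PORA had 56 and 65 counts in protoplasts and 2 and 6 counts in leaf (log2 fold change 4.64 ± 0.42, adjusted p = 4.9e-07), and without leaf replicate 2 its log2 fold change was 5.54. PORB had a log2 fold change of 0.25 ± 0.06 with TMM (adjusted p = 0.0019, edgeR) and of -0.55 with library size only. GUN4, a regulator of magnesium chelatase, fell to 176.0 and 181.8 CPM in protoplasts against 237.2 and 258.6 CPM in leaf. These rises stood beside that of the mesophyll markers, whose summed level with TMM in protoplasts was 146% of that in leaf, and the part of cell makeup in them was not tested.

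Of 10 tested senescence markers 7 rose and 3 fell with TMM, against 39.8% and 40.7% of all tested genes, and their median log2 fold change was 0.53. With library size only 4 rose and 6 fell, against 21.4% and 69.6% of all tested genes. SAG12, also on the list, had no row in the counts and was not tested. WRKY6, a transcription factor of senescence and defence, had 482.3 and 471.4 CPM in protoplasts and 8.70 and 8.44 CPM in leaf (log2 fold change 5.80 ± 0.06, adjusted p = 6.13e-16, edgeR). SAG21, a late embryogenesis abundant protein, had 115.2 and 142.8 CPM in protoplasts and 8.06 and 6.38 CPM in leaf (4.16 ± 0.12, adjusted p = 3.1e-12). SAG29 and GLN1;4, a sugar transporter of senescing leaves and a cytosolic glutamine synthetase, fell by 1.80 ± 0.27 and 1.66 ± 0.17 on the log2 scale (adjusted p = 5.02e-05 and 1.42e-06).

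**Figure D5:**
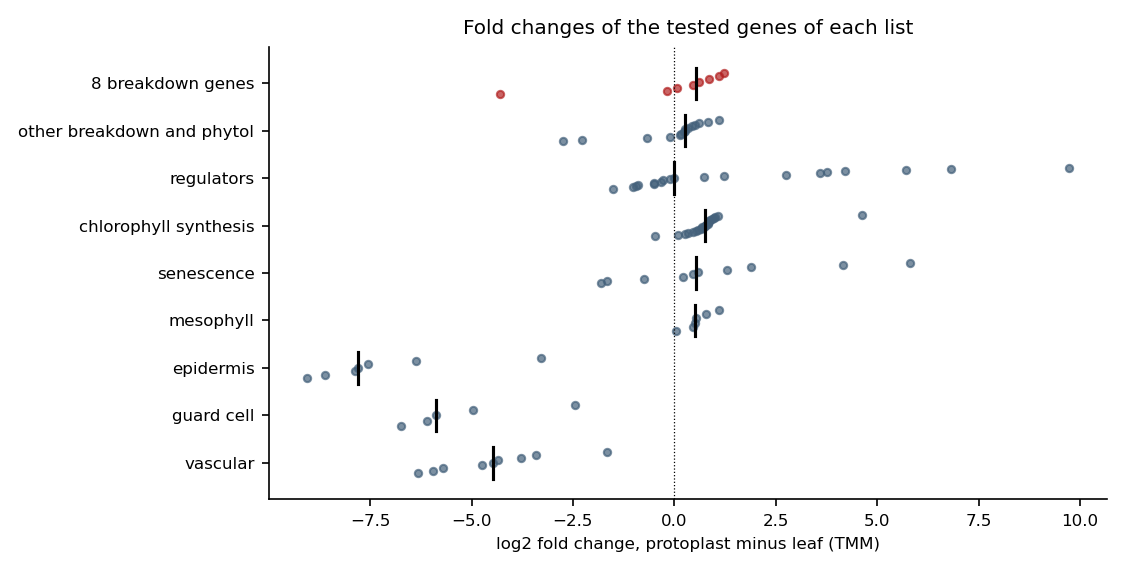
Log2 fold change, protoplast minus leaf with TMM scaling, of the tested genes of each list (dots, with the median as a bar); genes with 0 counts in a group are not drawn. The 8 breakdown genes lie between -4.30 and 1.23 around a median of 0.54, and the epidermis, guard cell and vascular markers lie below 0.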

How the data were processed

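RNA-seq counts of 2 protoplast and 2 leaf libraries were analysed. Per the labels' protocols, poly(A) RNA was made into directional libraries and sequenced as read pairs. The authors deposited whole-number read counts per locus, without normalization. The submitters' processing notes list STAR and DESeq with no version; which build, annotation, counting tool or strand setting was used is not stated in the sources used here. The authors' deposited table of protoplast over leaf holds a signal (mean count after scaling), log2 fold changes, test scores and p-values; only fold changes and adjusted p-values were printed from it.

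Counts were tested with edgeR 4.0.16 in R 4.3.3 (quasi-likelihood F test, no term but group, TMM factors of 0.764 and 0.749 for protoplasts and 1.323 and 1.321 for leaf, filterByExpr), with Benjamini-Hochberg adjustment over 20200 genes. The fit was tested on simulated data in which few genes changed, as many up as down, so the simulation could not test the scaling. Fold changes are protoplast minus leaf, and the SE is the fold change over the square root of F. Replicates differed by more than sampling noise (chi-square per degree of freedom 10.4 for protoplasts and 5.2 for leaf). DESeq2 1.42.0 and limma-voom (limma 3.58.1) were alternatives, beside other scalings, no filter, no organelle loci, each library left out and a replicate block. Scaling to the mesophyll markers and the crossed pairing were added after seeing the data.

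The members and lists were chosen with earlier results of these data known, so no list was tested as a set. Genes named by rule are the 8 members, CAO, and the 2 called genes at each end of each list; others were named after their values were seen, as said beside them or because a count left them over. Of 108 listed loci, 11 are shown by locus, 1 under another symbol, and 1 was left out because the reference annotates another protein there. Names, exon lengths and sequences come from RefSeq TAIR10.1, matched by locus tag (24651 of 24904 loci); the counts carry no coordinates. Without strand and multimapping settings, counts of overlapping genes and close relatives are uncertain. Intervals cover counting error only.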

Additional observations from a re-analysis of the deposited data

How the results depend on the processing

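With library size only, 4326 genes were higher and 14057 lower over all genes, 2 and 5 of the 8 breakdown genes, 4 and 9 of the synthesis genes and 4 and 6 of the senescence markers. Among the 15 further breakdown genes 12 were then lower and 0 higher by edgeR (0 at an unadjusted p under 0.05, and 10 higher by DESeq2 with its own factors). With scaling to the mesophyll markers, 5200 genes were higher and 12577 lower, 3 breakdown genes were higher, 2 further breakdown genes were higher and 10 lower, 4 synthesis genes were lower and 4 senescence markers higher. With upper-quartile factors 4 further breakdown genes were higher and 6 lower and 2 synthesis genes were lower, and with 10 reference genes 3, 6 and 2. One gene of the 8, SGR2, was lower with RLE factors and with DESeq2 (1 each). These scalings move all genes by construction.

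Reversed were NYC1 (-0.35 with library size only, -0.092 with mesophyll markers), NOL (-0.19 with library size only), PAO (-0.26 with upper-quartile factors, -0.74 with library size only, -0.30 with reference genes, -0.48 with mesophyll markers), CAO (-0.24, -0.72, -0.28 and -0.46 in the same order) and PORB (-0.076, -0.55, -0.12 and -0.29). CAO passed the threshold with RLE factors (adjusted p = 0.035) and with the crossed pairing (adjusted p = 0.0182).

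Leaving out each library gave log2 fold changes of -0.024 to 0.14 for PAO, and -0.188 to 0.0529 percentage points for the difference in the share of NOL. The cause was not tested. Replicate numbers are shared by label only: deviations of same-numbered libraries correlated at -0.245 over 16900 genes. With the replicate block 5 of the 8 genes were higher and 1 lower (38.5% and 39.0% of all genes), RCCR losing its call (adjusted p = 0.0507), and with the crossed pairing 5 were higher and 2 lower (40.9% and 42.0%). SGR2 rests on 5 and 3 protoplast counts.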
